A study of Mus musculus with 6 samples.

Results

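The genes described are 10 markers of liver macrophages, taken by their GENCODE M21 symbols from the 54532 genes that the count table lists by Ensembl identifier. Of these, 5 (Clec4f, Cd5l, Vsig4, Marco and Timd4) mark resident Kupffer cells and 5 (Adgre1, Csf1r, Cd68, C1qa and Lyz2) mark macrophages or myeloid cells in general. All 10 were found, and all 10 passed the filter on low counts with at least 3 HFD libraries above its cutoff, so that no marker entered the test through the HFD+allantoin libraries alone. Whole liver RNA was sequenced from wild-type male C57BL/6J mice on a high-fat diet (HFD), 3 without and 3 with allantoin, 1 library per mouse. The mice were 8 weeks old at the start and received the HFD alone for 4 weeks, and then for 4 more weeks either plain water or water with allantoin beside the HFD. The labels name more than 1 concentration and give none for the single libraries. A figure legend of the study places the sequenced livers in its higher-dose group, which its methods set at 0.3 mg/mL. Mice without the high-fat diet were not analysed here, so that both groups carry the diet, and no sorted cells are among the libraries.

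Kupffer cells are the macrophages that live inside the liver sinusoids, where they take up particles, bacteria, aged red cells and lipid from the passing blood. They are seeded before birth and largely renew themselves, and monocytes from the blood can enter the niche and gain Kupffer cell genes over time, with Clec4f gained early and Timd4 late. Growth and survival of macrophages depend on the receptor encoded by Csf1r, and their genes are opened by the transcription factor PU.1 together with partners such as MAF family factors and the liver X receptor.

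Library totals ran from 11326372 to 14601457 counts. Protein-coding genes of the mitochondrial chromosome made up 17.1% to 35.5% of HFD libraries, most in HFD replicate 1, and 6.68% to 11.1% of HFD+allantoin libraries. HFD replicate 2 held 520 counts of Adipoq and 498 of Plin1, genes of fat cells, where every other library had at most 1, so results are given with and without that library where they differ. The tissue label was met by the hepatocyte gene Alb, with 512399 to 1217067 counts per library. Levels are given as CPM, counts scaled to a common library size after TMM normalisation, and fold changes are HFD+allantoin over HFD from edgeR's quasi-likelihood test, with p-values adjusted by Benjamini-Hochberg over all 12795 genes tested. In whole liver, more macrophages and more RNA per macrophage cannot be told apart.

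Of the 10 markers, 3 rose in HFD+allantoin livers at an adjusted p under 0.05 in edgeR, namely Adgre1, Cd5l and Vsig4. Among all tested genes 11.3% were called higher and 13% lower, 24.3% in all. The other 7 markers did not pass, and 0 were called lower by edgeR, by DESeq2 or by limma-voom, or at an unadjusted p under 0.05 in edgeR. The median log2 fold change of the 10 markers was 0.97, where that of all tested genes was -0.03. The libraries of both groups did not overlap for 5 markers, all higher in HFD+allantoin (Adgre1, Cd5l, Vsig4, Csf1r and Lyz2), while 22.4% of all tested genes were without overlap in that direction, 21.9% in the other and 44.3% in either. Of the resident markers, Cd5l and Vsig4 were called, and Clec4f, Marco and Timd4 were not. Of the general markers, Adgre1 was called and Csf1r, Lyz2, Cd68 and C1qa were not. The uncalled markers were not alike, with log2 fold changes of 1.29 (Marco), 1.10 (Lyz2), 0.85 (Csf1r), 0.29 (Clec4f), -0.01 (Cd68), -0.06 (C1qa) and -0.10 (Timd4).

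**Figure D1:**
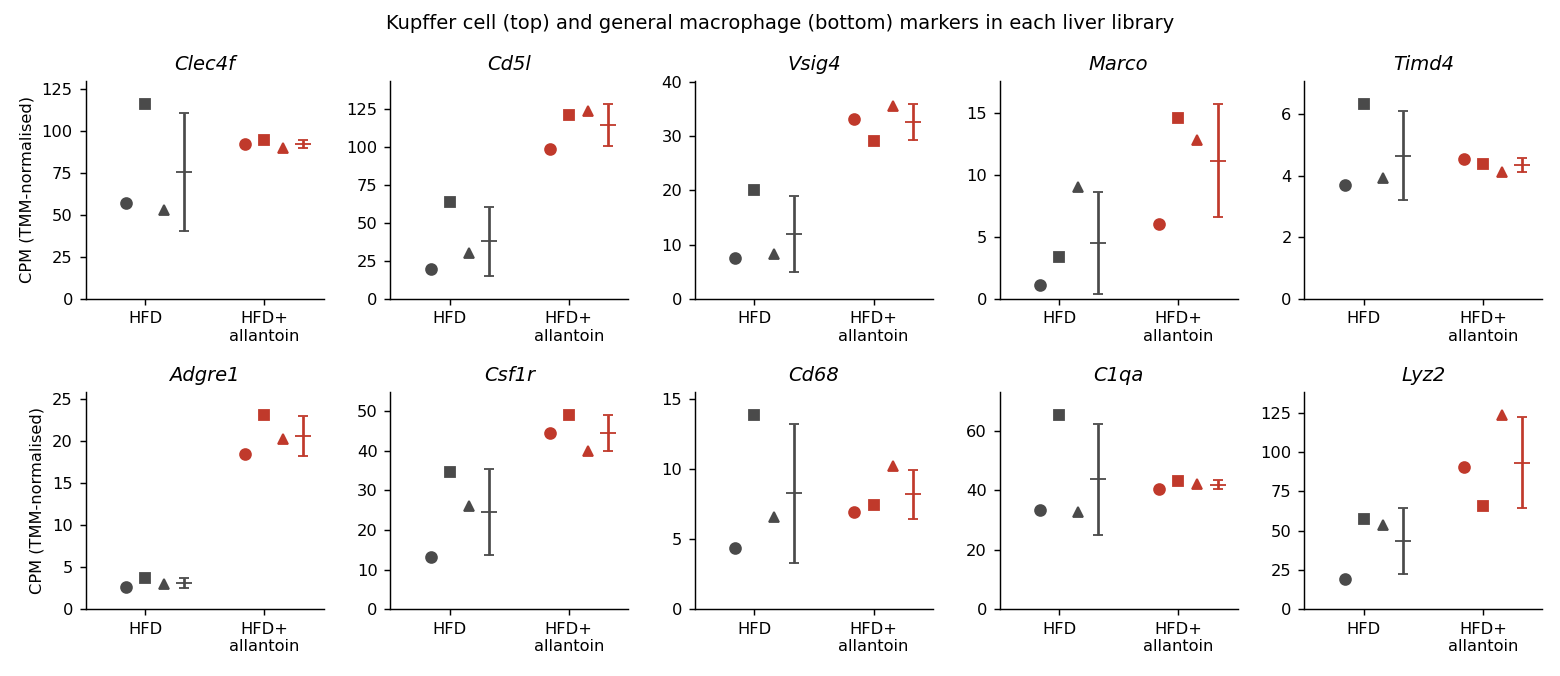
Expression of each marker in CPM (vertical axes, linear, from 0) in the 3 HFD libraries (grey) and the 3 HFD+allantoin libraries (red), with circles, squares and triangles for replicates 1 to 3 and 4 to 6 in that order and bars for the mean ± SD. Adgre1 lay between 2.62 and 3.75 CPM in HFD and between 18.4 and 23.1 CPM in HFD+allantoin, whereas the Clec4f, C1qa, Cd68 and Timd4 values of both groups overlapped, with HFD replicate 2 as the highest HFD library.

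Clec4f (ENSMUSG00000014542, chromosome 6, 83644542 to 83656187, GRCm38) encodes a C-type lectin of the cell surface that the mouse makes in Kupffer cells. Its HFD libraries held 57.3, 116 and 53.2 CPM (replicates 1 to 3), and its HFD+allantoin libraries 92.2, 94.4 and 89.7 CPM (replicates 4 to 6). The HFD+allantoin values thus fell inside the HFD range, between HFD replicate 2 and the other HFD libraries. The log2 fold change was 0.29 (standard error 0.28, adjusted p = 0.489, edgeR). Without HFD replicate 2 it was 0.74 and was called (adjusted p = 0.0217, edgeR; 0.0217 to 0.821 over its alternatives).

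Cd5l (ENSMUSG00000015854, chromosome 3, 87357881 to 87371073) encodes a secreted scavenger receptor protein that macrophages release into the blood. Its levels were 19.9, 63.7 and 29.8 CPM in the HFD libraries and 99.0, 121 and 124 CPM in the HFD+allantoin libraries. Every HFD+allantoin library lay above every HFD library. Mean expression was 37.8 ± 23.0 CPM in HFD and 115 ± 13.7 CPM in HFD+allantoin (SD, n = 3 each). It rose by 1.60 on the log2 scale (standard error 0.37, adjusted p = 0.0164, edgeR). Without HFD replicate 2 the log2 fold change was 2.20. The call was lost without HFD+allantoin replicate 5 (adjusted p = 0.0617, edgeR) or replicate 6 (adjusted p = 0.0559, edgeR), over a range of 1.09e-11 to 0.0617 in its alternatives.

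Vsig4 (ENSMUSG00000044206, chromosome X, 96247203 to 96293438) encodes the complement receptor of the immunoglobulin family by which Kupffer cells catch opsonised particles. It held 7.53, 20.1 and 8.28 CPM in HFD and 33.2, 29.1 and 35.6 CPM in HFD+allantoin. Both groups stood apart, with HFD replicate 2 nearest to the HFD+allantoin libraries. The log2 fold change was 1.44 (standard error 0.35, adjusted p = 0.0186, edgeR) and 2.04 without HFD replicate 2. Leaving out any 1 HFD+allantoin library moved the adjusted p to between 0.0556 and 0.0647 (edgeR), past the threshold.

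Marco (ENSMUSG00000026390, chromosome 1, 120474538 to 120505024), a scavenger receptor of Kupffer cells and other macrophages with a collagen-like stalk, held 1.09, 3.36 and 9.03 CPM in HFD and 6.01, 14.6 and 12.8 CPM in HFD+allantoin. Its order among the HFD libraries differed from that of the other markers, with HFD replicate 3 the highest and inside the HFD+allantoin range. The log2 fold change of 1.29 was not called (standard error 0.61, adjusted p = 0.152, edgeR). Without HFD replicate 3 it was 2.31 and was called (adjusted p = 0.0122, edgeR; 2.32e-04 to 0.362 over its alternatives). Timd4 (ENSMUSG00000055546, chromosome 11, 46810800 to 46844332), a phosphatidylserine receptor carried by long-resident Kupffer cells, held 3.71, 6.32 and 3.93 CPM in HFD and 4.55, 4.38 and 4.12 CPM in HFD+allantoin. The 3 HFD+allantoin values were inside the HFD range. Its log2 fold change was -0.10 (standard error 0.31, adjusted p = 0.846, edgeR), and it was 0.18 without HFD replicate 2 and 0.31 with library-size scaling, so it has no settled direction.

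The stretches around the transcription starts of these genes are shown for Cd5l and Vsig4, which rose, and for Clec4f and Timd4, which were not called. They come from RefSeq on GRCm38.p6, which held an entry for 7 of the 10 markers, and span 250 bases before to 50 bases after the start, read 5′ to 3′ on the strand of the gene. Capitals mark the core of the PU.1 site, GAGGAA, and the wider ETS core, GGAAGT, on either strand (TTCCTC and ACTTCC on the reverse). Where both motifs overlap they share the letters GGAA.
Cd5l, chr3:87357631-87357930, plus strand: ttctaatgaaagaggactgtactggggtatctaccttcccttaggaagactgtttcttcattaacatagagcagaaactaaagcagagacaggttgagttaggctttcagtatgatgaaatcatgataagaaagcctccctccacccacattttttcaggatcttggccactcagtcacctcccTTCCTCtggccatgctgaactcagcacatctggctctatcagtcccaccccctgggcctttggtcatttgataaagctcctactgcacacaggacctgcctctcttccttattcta
Vsig4, chrX:96293389-96293688, minus strand: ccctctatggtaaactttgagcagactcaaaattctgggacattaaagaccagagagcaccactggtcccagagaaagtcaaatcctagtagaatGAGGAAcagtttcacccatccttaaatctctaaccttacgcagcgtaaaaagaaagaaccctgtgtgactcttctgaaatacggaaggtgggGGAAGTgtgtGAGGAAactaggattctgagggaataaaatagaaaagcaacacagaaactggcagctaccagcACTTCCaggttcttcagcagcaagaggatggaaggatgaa
Clec4f, chr6:83656067-83656366, minus strand: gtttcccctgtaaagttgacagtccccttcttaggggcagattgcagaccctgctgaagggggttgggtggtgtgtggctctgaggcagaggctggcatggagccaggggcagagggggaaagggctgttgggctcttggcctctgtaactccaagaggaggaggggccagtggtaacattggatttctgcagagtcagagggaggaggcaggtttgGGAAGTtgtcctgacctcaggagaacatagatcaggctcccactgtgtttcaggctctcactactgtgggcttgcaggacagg
Timd4, chr11:46810549-46810848, plus strand: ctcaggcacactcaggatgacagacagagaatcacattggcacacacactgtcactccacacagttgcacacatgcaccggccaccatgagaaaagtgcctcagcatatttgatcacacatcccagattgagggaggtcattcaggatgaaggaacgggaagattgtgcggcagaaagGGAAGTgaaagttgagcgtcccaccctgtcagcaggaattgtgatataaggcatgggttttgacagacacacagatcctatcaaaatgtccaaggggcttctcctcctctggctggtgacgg
GAGGAA was found in 4 of the 7 windows (Marco, Cd5l, Cd68 and Vsig4) and in 28.3% of all 32851 windows of the same length. GGAAGT was found in 5 of the 7 (Clec4f, Lyz2, Timd4, Cd68 and Vsig4) and in 23.8% of all windows. The MAF core TGCTGA was found in 5 of the 7 (Cd5l, Clec4f, Lyz2, Timd4 and Vsig4) and in 19.5% of all windows. Vsig4 held 2 matches to each of GAGGAA and GGAAGT, with GAGGAA starting 155 and 53 bases before the transcription start. The AP-1 motif TGANTCA and the C/EBP motif TTGCNNAA matched in Cd68 alone among the 7, against 7.81% and 10.8% of all windows. The RBPJ motif GTGGGAA matched in 0 of the 7 and in 6.38% of all windows, and the DR4 motif of the liver X receptor in 0 of the 7 and in 5 of all windows. Both called markers with a window, Cd5l and Vsig4, held GAGGAA, as did Marco and Cd68, which were not called, while Clec4f, Lyz2 and Timd4, not called, held none. GGAAGT was present in Vsig4 and absent from Cd5l.

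Adgre1 (ENSMUSG00000004730, chromosome 17, 57358691 to 57483527) encodes F4/80, the adhesion receptor by which mouse macrophages are most often stained. It had the largest log2 fold change of the 10 markers. It held 24, 38 and 36 counts in the HFD libraries and 251, 390 and 299 counts in the HFD+allantoin libraries, which correspond to 2.62, 3.75 and 3.01 CPM and to 18.4, 23.1 and 20.2 CPM. The gap between the highest HFD and the lowest HFD+allantoin library was wider than the spread within either group. Mean expression was 3.13 ± 0.576 CPM in HFD and 20.6 ± 2.36 CPM in HFD+allantoin (SD, n = 3 each). It rose 6.55-fold, or by 2.71 on the log2 scale (standard error 0.22, adjusted p = 0.00106, edgeR). It was called in all 17 alternatives, with log2 fold changes of 2.60 to 3.12.

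Csf1r (ENSMUSG00000024621, chromosome 18, 61100598 to 61132149) encodes the receptor for the growth factors CSF1 and IL-34. Its levels were 13.2, 34.8 and 26.0 CPM in HFD and 44.6, 49.0 and 40.0 CPM in HFD+allantoin. The groups did not overlap, but HFD replicate 1 stood well below the other HFD libraries, and the log2 fold change of 0.85 was not called (standard error 0.30, adjusted p = 0.0692, edgeR). It was called without HFD replicate 2 (1.18, adjusted p = 0.0249, edgeR) and by DESeq2 (adjusted p = 0.0290), within a range of 6.03e-04 to 0.188 over its alternatives. Exons of Hmgxb3 on the opposite strand share 873 bases with those of Csf1r, and the sources used here do not state whether counting used strand. Hmgxb3 itself held 171 counts over the HFD and 307 over the HFD+allantoin libraries.

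Lyz2 (ENSMUSG00000069516, chromosome 10, 117277331 to 117282321), the lysozyme of macrophages, monocytes and neutrophils, held 19.4, 57.5 and 53.6 CPM in HFD and 90.2, 65.9 and 124 CPM in HFD+allantoin. All HFD+allantoin libraries were above all HFD libraries, with a spread of 28.9 CPM (SD, n = 3) in the former. The log2 fold change of 1.10 was not called (standard error 0.39, adjusted p = 0.0668, edgeR; 5.19e-06 to 0.209 over its alternatives). DESeq2 called Lyz2 higher (adjusted p = 0.0149). Its transcript is 95.8% identical over 1264 bases to that of Lyz1, so that the division of reads between both is uncertain, but Lyz1 was given 12 counts over the HFD libraries and 10 over the HFD+allantoin libraries.

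Cd68 (ENSMUSG00000018774, chromosome 11, 69664213 to 69666153) encodes a lysosomal membrane glycoprotein found in nearly all macrophages. It held 4.37, 13.8 and 6.60 CPM in HFD and 6.96, 7.45 and 10.2 CPM in HFD+allantoin. The HFD+allantoin values lay inside the HFD range, and the log2 fold change was -0.01 (standard error 0.39, adjusted p = 0.987, edgeR). C1qa (ENSMUSG00000036887, chromosome 4, 136895917 to 136898803) encodes the A chain of C1q, the recognition part of the classical complement pathway, which tissue macrophages make. It held 33.3, 65.3 and 32.6 CPM in HFD and 40.4, 43.2 and 42.0 CPM in HFD+allantoin, again inside the HFD range. Its log2 fold change was -0.06 (standard error 0.27, adjusted p = 0.889, edgeR). The direction of either gene is not settled, since without HFD replicate 2 the log2 fold changes were 0.57 for Cd68 and 0.35 for C1qa, and with library-size scaling 0.37 and 0.34, in each case not called.

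**Figure D2:**
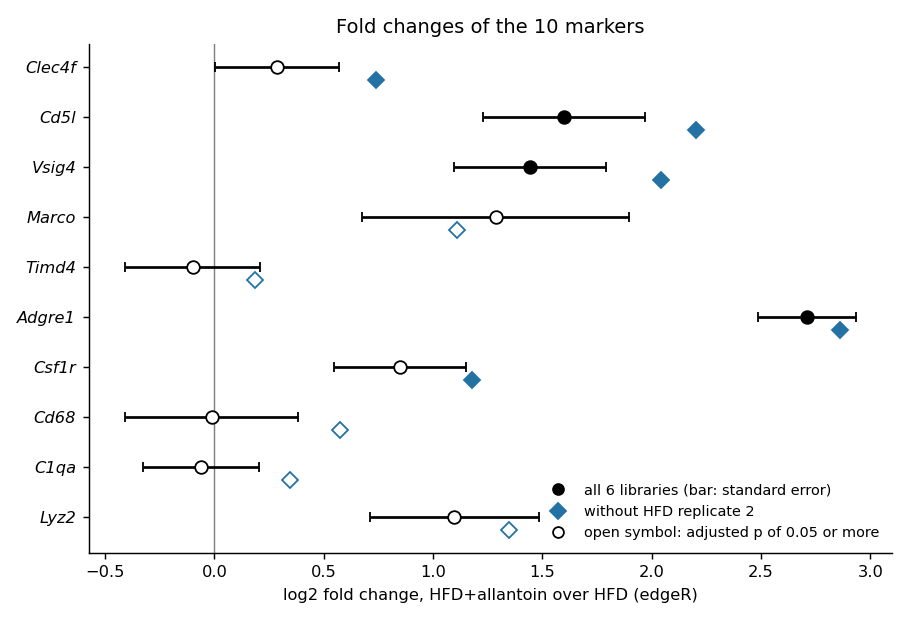
Log2 fold change of each marker (horizontal axis, HFD+allantoin over HFD) from all 6 libraries (circles, bars for the standard error) and without HFD replicate 2 (diamonds), filled where the adjusted p was under 0.05. Adgre1, Cd5l and Vsig4 were called in both fits, and Clec4f and Csf1r only without HFD replicate 2, at 0.74 and 1.18.

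The HFD libraries varied more than the HFD+allantoin libraries for all 10 markers. The coefficient of variation ran from 18.4% (Adgre1) to 91.0% (Marco) in HFD and from 2.56% (Clec4f) to 40.7% (Marco) in HFD+allantoin. HFD replicate 2, the library with fat cell genes, was the highest HFD library for 9 of the 10 markers and HFD replicate 1, the library with the highest mitochondrial share, the lowest for 8. In the further lists, HFD replicate 2 was the highest HFD library for 5 of 12 other Kupffer cell genes and 12 of 22 other macrophage genes. Relative to the mean of the other HFD libraries, HFD replicate 2 was 2.56-fold higher in Cd5l, 2.55-fold in Vsig4, 2.52-fold in Cd68 and 2.10-fold in Clec4f, but 1.33-fold in Adgre1. Fat tissue holds macrophages of its own, and the part of the fat cell genes in these levels was not tested. Without HFD replicate 2, 5 markers were called higher (Clec4f, Cd5l, Vsig4, Adgre1 and Csf1r), and without HFD replicate 1, 3 were (Cd5l, Vsig4 and Adgre1). The number of calls over all genes moved as well, so the marker counts alone do not show that the markers moved more than other genes. When single libraries were left out, 460 to 1773 genes were called higher, against 1446 (11.3%) with all libraries.

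Per length of the gene's annotated exons, C1qa was the most abundant marker in HFD livers, at 42.0 CPM per kb. It was followed by Lyz2 (33.1), Clec4f (30.5), Cd5l (18.6), Vsig4 (8.08), Cd68 (6.58), Csf1r (4.27), Marco (2.33), Timd4 (2.14) and Adgre1 (0.966), in mean CPM per kb. In that order each marker overlapped with the next over the HFD libraries, except that the Adgre1 libraries all lay below those of Timd4. In HFD+allantoin livers the order of mean CPM per kb was Lyz2 (70.8), Cd5l (56.3), C1qa (40.3), Clec4f (37.3), Vsig4 (22.0), Csf1r (7.71), Cd68 (6.53), Adgre1 (6.35), Marco (5.79) and Timd4 (2.0). There, Lyz2 overlapped with Cd5l, and Csf1r with Cd68, Cd68 with Adgre1 and Adgre1 with Marco, while the other neighbours did not overlap. Adgre1 thus stood last of the 10 in HFD and beside Cd68 and Csf1r in HFD+allantoin. These levels rest on the combined length of all annotated exons of a gene.

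Ratios of marker counts within a library do not depend on how libraries are scaled or on how much hepatocyte RNA a library holds, and show how the markers moved against each other. They can still carry a library's dependence on transcript length and GC content, and are given as a description, without a test. Adgre1 counts were 0.0457, 0.0324 and 0.0566 of the Clec4f counts in the HFD libraries and 0.200, 0.244 and 0.225 of them in the HFD+allantoin libraries, a geometric mean ratio 5.08-fold higher. The ratio of Cd5l to Clec4f was 0.347, 0.550 and 0.561 in HFD and 1.07, 1.28 and 1.38 in HFD+allantoin, 2.61-fold higher by the geometric mean, and that of Vsig4 to Clec4f was 2.31-fold higher by the same measure. Both sets of ratios were without overlap between the groups. The ratio of C1qa to Clec4f, in contrast, was narrow in either group and lower in HFD+allantoin, at 0.581, 0.564 and 0.613 in HFD and 0.438, 0.458 and 0.469 in HFD+allantoin. Timd4 to Clec4f was also lower without overlap, at 0.0648, 0.0546 and 0.0739 in HFD and 0.0493, 0.0464 and 0.0459 in HFD+allantoin. The Timd4 ratios rest on few counts, 34, 64 and 47 in HFD and 62, 74 and 61 in HFD+allantoin. Thus C1qa and Clec4f, which both differed among the HFD libraries by more than among the HFD+allantoin libraries, kept a ratio with an SD of 0.06 (HFD) and 0.05 (HFD+allantoin) on the log2 scale (n = 3 each).

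**Figure D3:**
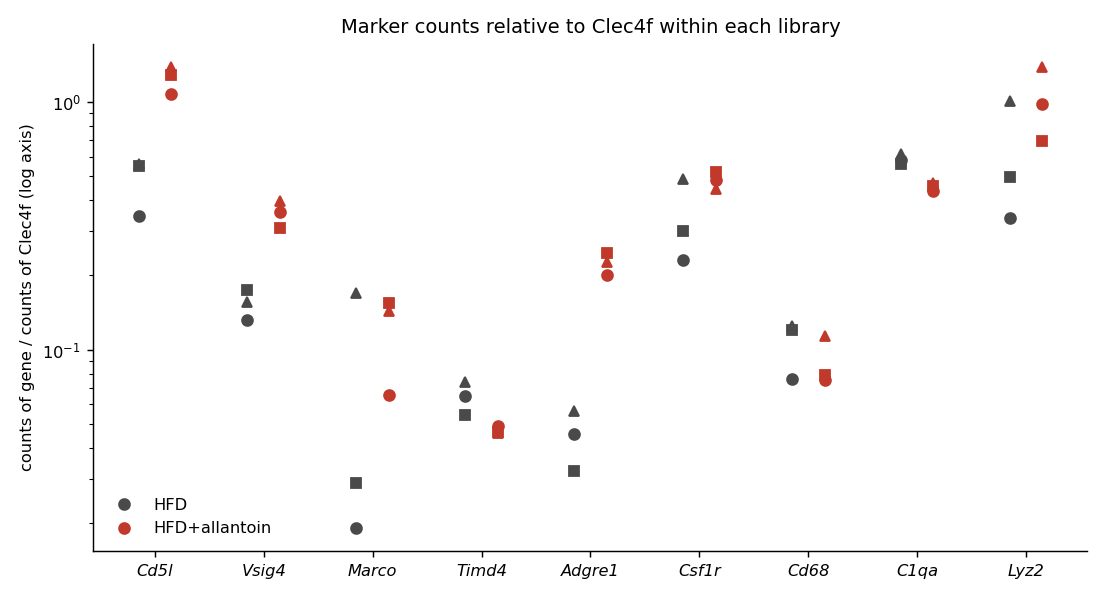
Counts of each marker divided by the counts of Clec4f in the same library (vertical axis, logarithmic), for HFD (grey) and HFD+allantoin (red) libraries, with circles, squares and triangles for replicates 1 to 3 and 4 to 6 in that order. Adgre1, Cd5l and Vsig4 were higher relative to Clec4f in every HFD+allantoin library than in any HFD library, and C1qa and Timd4 were lower.

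Among all 45 pairs of the markers, the within-library ratios of both groups did not overlap in 24, or 53.3%, where 41.8% of all pairs of tested genes were without overlap. Adgre1 was without overlap in 8 of its 9 pairs and Marco in 0 of its 9. The mean log2 counts of the resident markers minus those of the general markers were -0.30, -0.22 and -0.19 in the HFD libraries and -0.27, -0.03 and -0.21 in the HFD+allantoin libraries. These ranges overlapped, so the resident class as a whole was not seen to move against the general class. The difference of the class medians of the log2 fold change, 1.29 for the resident and 0.85 for the general markers, was 0.44 with all libraries and -0.07 without HFD replicate 2.

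The chains of C1q allow a comparison within a single protein complex, since the genes C1qa, C1qb and C1qc lie side by side and their products join in the same molecule. C1qb held 25.3 ± 10.9 CPM in HFD and 43.5 ± 4.25 CPM in HFD+allantoin (SD, n = 3 each), a log2 difference of 0.78 that was not called (adjusted p = 0.0758, edgeR). For C1qc the log2 difference was 0.67, also not called (adjusted p = 0.172, edgeR). The counts of C1qa were 2.19, 1.77 and 1.36 times those of C1qb in the HFD libraries and 0.924, 1.11 and 0.884 times those in the HFD+allantoin libraries, without overlap. The ratio of C1qb to C1qc was 1.06, 0.894 and 1.19 in HFD and 1.11, 1.03 and 1.10 in HFD+allantoin, with overlap. C1qa counts thus differed between the groups relative to both partner chains, whose own ratio overlapped. Of all pairs of tested genes, however, 41.8% were without overlap, and C1qb and C1qc were chosen after their values were seen. With each library's dependence on transcript length and GC content taken out, the log2 fold change of C1qa was 0.29 and that of Cd68 0.23, neither called, and that of Adgre1 was 2.62.

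**Figure D4:**
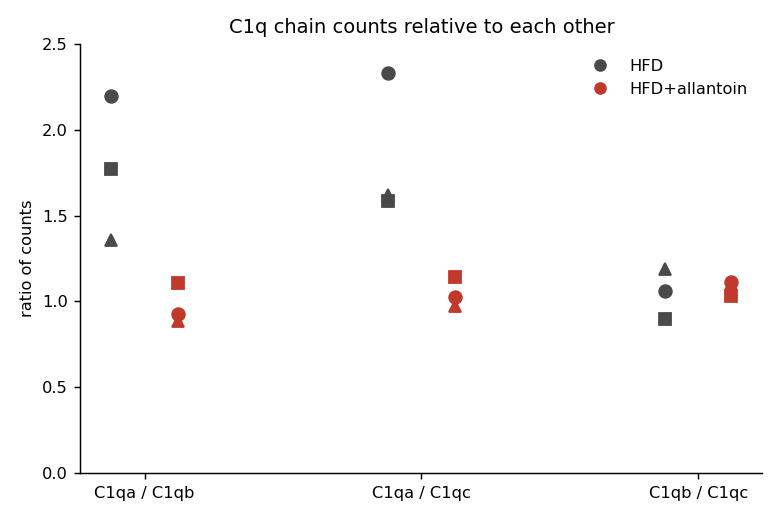
Ratios between the counts of the C1q chain genes in each library (vertical axis, linear, from 0), for HFD (grey) and HFD+allantoin (red) libraries, with circles, squares and triangles for replicates 1 to 3 and 4 to 6 in that order. The ratios of C1qa to C1qb and to C1qc were at least 1.36 in every HFD library and at most 1.14 in every HFD+allantoin library, whereas those of C1qb to C1qc overlapped. Ratios were without overlap in 41.8% of all pairs of tested genes.

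Of 12 other genes of Kupffer cells, 1 was called higher, 1 was called lower and 10 were not called, with a median log2 fold change of 0.30. The gene called higher was Folr2, a folate receptor of resident macrophages, with 4, 5 and 2 counts in the HFD libraries and 30, 15 and 37 counts in the HFD+allantoin libraries, so that it passed the filter through the latter alone and had to differ (log2 fold change 2.34, adjusted p = 0.0283, edgeR). Its call was lost with limma-voom, which called 0 of the 12 higher (adjusted p = 0.0691; 0.0106 to 0.109 over its alternatives), and without HFD replicate 1 or 3 or HFD+allantoin replicate 4 or 6. C6, a secreted component of the complement attack complex, was called lower (log2 fold change -0.80, adjusted p = 0.0235, edgeR), but not with library-size scaling or without HFD+allantoin replicate 5 or 6 (adjusted p up to 0.285, edgeR). Nr1h3, which encodes the liver X receptor alpha, held 80.5 ± 5.15 CPM (SD, n = 3) in HFD and 97.0 ± 8.09 CPM (SD, n = 3) in HFD+allantoin and was not called (adjusted p = 0.226, edgeR).

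Of 22 other macrophage genes, 2 were called higher, 1 was called lower and 19 were not called, with a median log2 fold change of 0.37. The number called higher was 4 by DESeq2, 4 by limma-voom, 5 at an unadjusted p under 0.05, and 0 to 8 over the alternatives (8 with library-size scaling). Both that rose encode lysosomal cysteine proteases. Lgmn went from 31.8 ± 7.31 to 56.1 ± 4.79 CPM (SD, n = 3 each; log2 fold change 0.82, adjusted p = 0.0188, edgeR), and Ctss from 15.7 ± 6.18 to 33.8 ± 7.53 CPM (SD, n = 3 each; log2 fold change 1.10, adjusted p = 0.0314, edgeR). Both calls were lost on leaving out any 1 HFD+allantoin library, with adjusted p up to 0.0737 for Lgmn and 0.116 for Ctss (edgeR). Csf2ra, a subunit of the GM-CSF receptor, fell by 1.06 on the log2 scale (adjusted p = 0.0395, edgeR), a call that was lost in 7 of 17 alternatives, among them leaving out any 1 library except HFD replicate 1 (adjusted p up to 0.196). The short adaptor genes of myeloid receptors, Tyrobp and Fcer1g, had log2 fold changes of 0.06 and -0.54 and were not called.

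A list of 12 genes held Csf1r itself together with its ligands and lineage regulators, of which 1 was called lower, 11 were not called and 0 were called higher by edgeR. At an unadjusted p under 0.05, 2 were higher, and 2 were by DESeq2 and 1 by limma-voom, in each case with Csf1r among them. Cebpb, a transcription factor that hepatocytes also express, fell by 1.30 on the log2 scale (adjusted p = 0.00340, edgeR). Csf1, the main ligand, held 10.4 ± 0.700 CPM (SD, n = 3) in HFD and 9.13 ± 0.907 CPM (SD, n = 3) in HFD+allantoin, and Spi1, which encodes PU.1, 8.35 ± 1.06 and 6.34 ± 1.41 CPM (SD, n = 3 each). Neither was called (adjusted p of 0.514 and 0.278, edgeR).

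The genes of recently recruited monocytes were sparse. Of 10, 5 passed the filter and 0 were called in either direction by edgeR, by DESeq2 or by limma-voom, or at an unadjusted p under 0.05 in edgeR. Plac8, the most abundant, held 9.12 ± 0.230 CPM (SD, n = 3) in HFD and 11.0 ± 5.45 CPM (SD, n = 3) in HFD+allantoin, where HFD+allantoin replicate 6 stood above the other libraries. Of 8 genes of lipid-associated macrophages, 7 were tested, and 2 fell, 5 were not called and 0 were called higher by edgeR, DESeq2 or limma-voom, or at an unadjusted p under 0.05. Those that fell were Fabp5, a fatty acid binding protein (log2 fold change -1.70, adjusted p = 0.0212, edgeR), and Cd9, a tetraspanin (log2 fold change -1.16, adjusted p = 0.0295, edgeR). Both calls were lost without HFD replicate 1 or HFD+allantoin replicate 4 or 5 (adjusted p up to 0.0641 for Fabp5 and 0.108 for Cd9, edgeR), and that of Cd9 also with library-size scaling. Trem2, the lipid receptor that defines such cells, held 9, 33 and 14 counts in HFD and 43, 29 and 22 counts in HFD+allantoin and was not called (adjusted p = 0.799, edgeR). Its mean of 1.80 CPM in HFD was below those of Fabp5 (12.8 CPM) and Cd9 (14.1 CPM). Whole liver RNA does not show which cells the Fabp5 and Cd9 counts came from. Of 17 inflammatory cytokines and chemokines, 10 were tested and 0 were called by edgeR, by DESeq2 or by limma-voom, with 1 higher and 1 lower at an unadjusted p under 0.05. Tnf held at most 7 counts and Il6 at most 3 counts in any library, which is too few to show a difference. Cxcl1 held 77.7, 19.3 and 33.2 CPM in HFD and 4.47, 3.67 and 70.4 CPM in HFD+allantoin, so that HFD+allantoin replicate 6 lay inside the HFD range and the other HFD+allantoin libraries below it.

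Markers of other cells gave the setting of these values. Of 7 genes of all white blood cells, 3 were called higher and 4 were not called. They were Arhgdib (log2 fold change 3.06, adjusted p = 0.00502, edgeR), Laptm5 (1.80, adjusted p = 0.00423, edgeR) and Lcp1 (0.58, adjusted p = 0.0278, edgeR), whereas Ptprc, which encodes CD45, the surface protein that defines white blood cells, held 11.3 ± 4.50 CPM (SD, n = 3) in HFD and 12.4 ± 2.71 CPM (SD, n = 3) in HFD+allantoin (adjusted p = 0.801, edgeR). Arhgdib held 14, 11 and 3 counts in the HFD libraries, with 2 HFD and 3 HFD+allantoin libraries above the filter's cutoff. It passed the filter only with the help of the HFD+allantoin libraries, where it was higher, so that its call leans on the filter. The call of Lcp1 was lost on leaving out any 1 HFD+allantoin library (adjusted p up to 0.105, edgeR). The summed level of these 7 genes was 78.3 to 101 CPM in HFD and 132 to 156 CPM in HFD+allantoin. Lcp1 alone held a mean of 52.9 CPM in HFD and 79.1 CPM in HFD+allantoin, the largest part of the sum. By log2 fold change, 5 of the 7 genes were above 0 and 2 below. Genes of T, NK and B cells, neutrophils and dendritic cells were low. Of 5, 4, 4 and 4 tested genes of these lists, 0 were called higher, and Csf3r of neutrophils (log2 fold change -1.50, adjusted p = 0.0491, edgeR) and Clec9a of dendritic cells (-1.97, adjusted p = 0.0234, edgeR) fell, while the other 15 were not called. The call of Csf3r was lost in 7 of 17 alternatives (adjusted p up to 0.167, edgeR), among them leaving out HFD replicate 1 or 3 or HFD+allantoin replicate 4 or 5, and that of Clec9a without HFD replicate 1 or HFD+allantoin replicate 4 or 5 (adjusted p up to 0.10, edgeR). At an unadjusted p under 0.05, by DESeq2 and by limma-voom, 0 of these genes were higher. DESeq2 called lower 1 gene of T and NK cells, 2 of B cells, 3 of neutrophils and 1 of dendritic cells, and limma-voom 1, 0, 3 and 1 in that order. Cd4 and Ighm, the most abundant of the T and NK and of the B cell lists, had log2 fold changes of -1.67 and -0.95 and were not called by edgeR (adjusted p of 0.0584 and 0.0725). DESeq2 called both lower (adjusted p of 0.0170 and 0.0370), and limma-voom called Cd4 (adjusted p = 0.0486), within ranges of 0.00535 to 0.166 and 0.00406 to 0.272 over their alternatives.

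Of 12 markers of the sinusoidal endothelium, in whose lumen Kupffer cells sit, 1 was called higher (Ptprb, log2 fold change 1.10, adjusted p = 0.0383, edgeR), 1 was called lower (Stab1, a scavenger receptor also found on macrophages, -0.94, adjusted p = 0.0153, edgeR) and 10 were not called, with a median of 0.55. The number called higher was 3 by DESeq2, 2 by limma-voom, 4 at an unadjusted p under 0.05, and 0 to 5 over the alternatives. Ptprb lost its call with the length and GC trend removed and without HFD replicate 1 or HFD+allantoin replicate 4 or 5 (adjusted p up to 0.136, edgeR), and Stab1 with library-size scaling and without HFD+allantoin replicate 5 or 6 (adjusted p up to 0.0901, edgeR). Of 10 markers of stellate cells, 7 were called higher and 3 were not, with a median of 1.18, above that of the macrophage markers. Among them Hgf (2.83), Lrat (1.86) and Col14a1 (1.33) had the smallest p-values (adjusted p of 0.00351, 0.00518 and 0.00301, edgeR). The summed stellate level was 228 to 359 CPM in HFD and 502 to 590 CPM in HFD+allantoin. Of 12 hepatocyte markers, 2 were called higher, 3 were called lower and 7 were not called, with a median of -0.34. Tdo2 rose (1.67, adjusted p = 0.00348, edgeR), and Apoa1 (-1.23, adjusted p = 0.00790, edgeR) and Serpina1c (-1.13, adjusted p = 0.00455, edgeR) fell. The summed hepatocyte level, 99350 to 101732 CPM in HFD and 84554 to 112901 CPM in HFD+allantoin, overlapped. The part of a changed makeup of the tissue in the macrophage values was not tested.

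Of 6 cholangiocyte markers, 3 were tested and Sox9 fell (log2 fold change -3.17, adjusted p = 0.00735, edgeR), with 2 not called. Of 5 red blood cell genes, 0 were called by edgeR, with 1 higher at an unadjusted p under 0.05 and called by DESeq2 and limma-voom. Their summed level was 332 to 1333 CPM in HFD and 876 to 1053 CPM in HFD+allantoin, and overlapped between the groups. Hba-a1, the most abundant over all 6 libraries, had a log2 difference of -0.28 (adjusted p = 0.673, edgeR), which was 0.19 with library-size scaling. Of 6 fat cell genes, 2 were tested and 0 were called by edgeR, DESeq2 or limma-voom or at an unadjusted p under 0.05, the most abundant being Car3 (log2 fold change -0.08, adjusted p = 0.834, edgeR), which the liver also expresses.

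**Figure D5:**
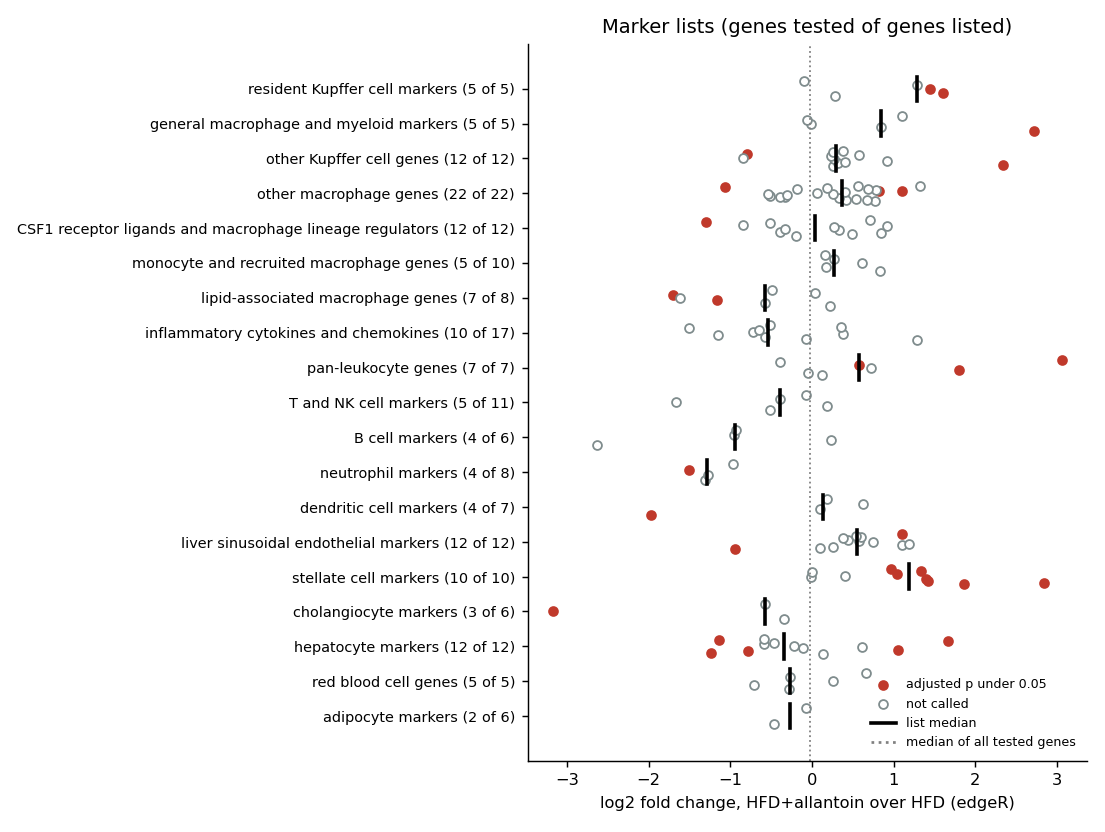
Log2 fold change (horizontal axis, HFD+allantoin over HFD) of every tested gene of the macrophage markers and of 17 other lists (rows, with genes tested of genes listed), filled red where the adjusted p was under 0.05, with a black bar at the list median and a dotted line at the median of all tested genes, -0.03. The stellate cell list had 7 called genes of 10, the resident Kupffer list 2 of 5 and the general macrophage list 1 of 5.

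The genes whose levels followed the markers most closely across the 6 libraries were listed for Clec4f and Csf1r by Pearson's r of log2 CPM, as a description only, since the 6 libraries share the group difference and the scaling. For Clec4f they were Crtap (r = 0.992), Mef2c (0.991), Stxbp4 (0.984), Agtrap (0.982) and Pdgfd (0.982), and 47 genes had r over 0.95. For Csf1r they were Cdc37 (r = 0.998), Rnf152 (0.997), Psmd13 (0.997), Tlcd2 (0.997) and Psmd7 (0.995), and 264 genes had r over 0.95.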

How the data were processed

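Raw read counts per gene were deposited by the authors for 6 mouse liver libraries, which counted filtered Illumina reads without normalization. The submitters' processing notes name GRCm38 and mm10, and the aligner, counting tool and strand setting are not given in the sources used here. Of 54961 entries, 429 lacked an Ensembl identifier (0.197% to 0.306% of counts) and were dropped, and 54495 of the remaining 54532 were found in GENCODE M21, which gave symbols and positions. Groups came from the treatment label. The labels do not say whether libraries share a cage or batch, so a cage or batch common to a group cannot be told apart from allantoin. The edgeR p-values rest on the spread between the mice within each group, with information shared over genes.

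Counts were tested with edgeR 4.0.16 (R 4.3.3), using TMM factors (0.756 to 0.951 in HFD, 1.12 to 1.19 in HFD+allantoin), filterByExpr and quasi-likelihood F-tests with group as the only term, and p-values of 12795 genes were adjusted by Benjamini-Hochberg. Standard errors were derived from the F statistic. Log2 CPM used a prior count of 2. Near-identical transcripts (at least 95% over 200 bases) were searched with BLAST 2.17.0. The procedure was tested on simulated data. Named besides the 10 markers were, per list, the called genes with the 3 smallest p-values or else the most abundant gene, and other genes named (Nr1h3, Tyrobp, Fcer1g, Csf1, Spi1, C1qb, C1qc, Trem2, Tnf, Il6, Ptprc, Alb, Adipoq and Plin1) were chosen after their values were seen. The markers, 17 further lists and motifs were chosen with earlier results of these data known. With 3 against 3, an exact permutation test cannot give a p below 0.10. Alternatives were DESeq2 1.42.0, limma-voom (limma 3.58.1), scaling by RLE, upper quartile or library size, other filters, removal of the mitochondrial chromosome or of the length and GC trend (splines with 5 degrees of freedom), entries without identifiers kept, and leaving out each library.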

Additional observations from a re-analysis of the deposited data

How the results depend on the processing

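No marker was called lower under any of the 17 alternatives, and the median log2 fold change of the markers stayed within the spread between replicates, from 0.65 to 1.35. Adgre1 was called throughout. The number of markers called higher was 5 with DESeq2, 5 with library-size scaling and 6 without a filter, against 3, and 1 to 5 when single libraries were left out, with 1 (Adgre1) without HFD+allantoin replicate 5 or 6. Calls over all genes rose as well, from 1446 higher and 1666 lower among 12795 tested to 1747 and 1966 with DESeq2. With library-size scaling, which raised the median of all genes to 0.38, they were 3162 higher and 674 lower of 12795. They were 460 to 1773 higher and 564 to 2008 lower when single libraries were left out. Over all alternatives, the fit without a filter included, 460 to 3162 genes were called higher. The resident minus general median was 0.65 with limma-voom, 0.64 with the length and GC trend removed, and -0.068 (without HFD replicate 2) to 0.58 when single libraries were left out. Of the 7 markers that were not called, Timd4, Cd68 and C1qa changed sign in some alternatives. Timd4 was 0.31 with library-size scaling and -0.23 to 0.18 with single libraries left out. Cd68 was 0.37 with library-size scaling, 0.12 with limma-voom, 0.025 without a filter, 9.41e-04 with at least 10 counts in every library, 0.23 with the trend removed and -0.31 to 0.57 with single libraries left out. C1qa was 0.34, 0.018 and 0.29 with library-size scaling, limma-voom and the trend removed, and -0.23 to 0.35 with single libraries left out. Hba-a1 was 0.19 with library-size scaling, 0.33 with the trend removed and -0.69 to 0.10 with single libraries left out, Car3 0.32 with library-size scaling and -0.19 to 0.093, and Plac8 -0.22 to 0.50. The cause was not tested. No paired analysis was possible because the groups share no replicate number. Markers with a mean under 10 CPM in HFD, which were Adgre1, Timd4, Cd68 and Marco, rest on 10 to 140 counts per HFD library, and Adgre1 on 24 to 38.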
